A study of Mus musculus with 5 samples.

Results

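Medulloblastoma arising in MyoD+/+;SmoA2 mice is described here by the abundance of its transcripts rather than by a contrast. SmoA2 is Smoothened, the signal transducer of the hedgehog pathway, in an activated form, and these tumours also kept both copies of MyoD (gene Myod1). All 3 MyoD+/+;SmoA2 arrays of the 5 arrays in the study were used, 1 array per tumour. The other 2 arrays hold MyoD+/-;SmoA2 tumours, which carry SmoA2 with 1 working copy of MyoD. Every tumour was taken at end stage, and the question of the study was whether canonical muscle differentiation contributes to what MyoD loss does to such tumours. The labels give no strain, age, sex or promoter of the transgene, and they do not say whether the 3 tumours came from 3 mice, so the spread between them may be partly technical.

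Sonic hedgehog normally drives granule neuron precursors of the cerebellum to divide, and activated Smoothened keeps the pathway on without its ligand. Such precursors are the cells of origin of hedgehog-type medulloblastoma, which mixes dividing precursor-like cells with cells on the way to granule neurons, glia, vessels and immune cells. MyoD is a transcription factor known for starting skeletal muscle differentiation.

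Probes were ranked by the mean non-normalized signal of the 3 arrays, and each gene was represented by its brightest probe. A probe counted as detected when its detection p, which sets its signal against the array's negative control probes, was under 0.05 on all 3 arrays. Of 34885 probes with 1 gene symbol, 13205 (37.9%) were detected on all 3 arrays, 3480 (9.98%) on 1 or 2, and 18200 (52.2%) on 0. Of 19057 genes, 9080 (47.6%) were detected, 1858 (9.75%) were detected on 1 or 2 arrays, and 8119 (42.6%) on 0. The detected genes were divided into an upper range of 3027 genes (mean signal 599 to 32650), a middle range of 3027 genes (258 to 599) and a lower range of 3026 genes (156 to 258). Signal also depends on how well a probe binds its target, so a rank describes signal and not a number of molecules. In whole tumours, fewer cells of a type and less RNA per cell cannot be told apart.

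**Figure D1:**
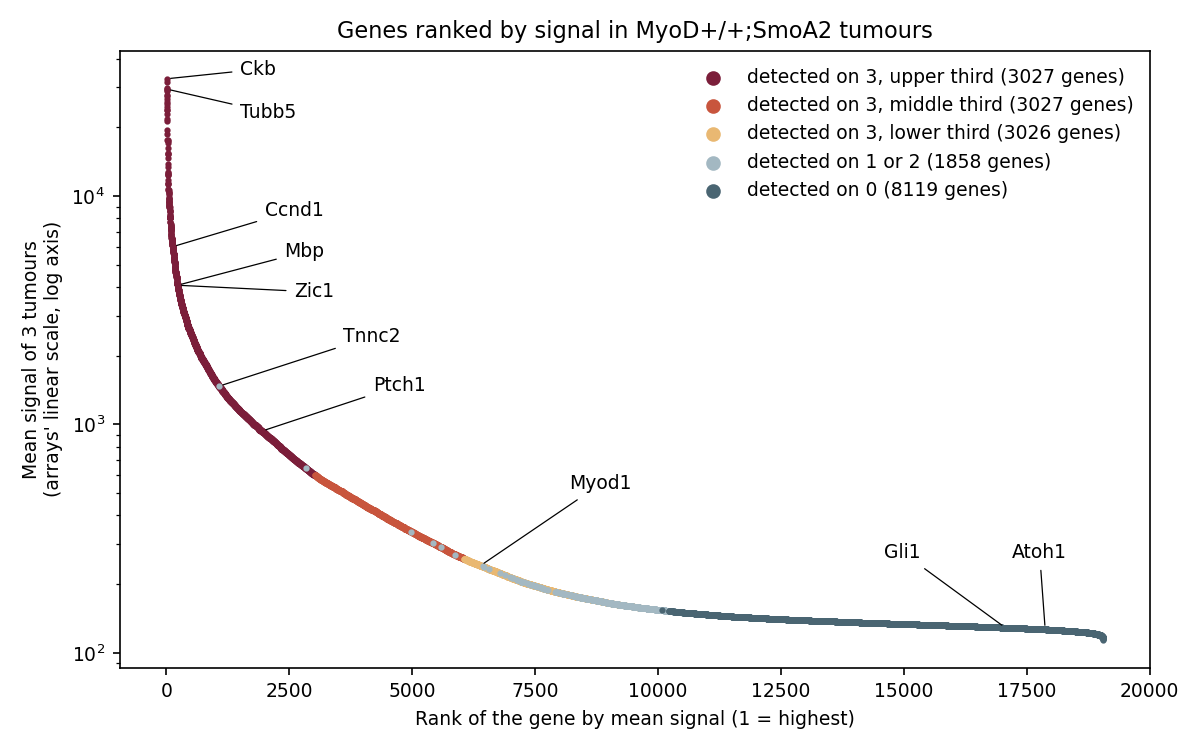
Mean signal of the 3 MyoD+/+;SmoA2 tumours (log axis) against the rank of each of 19057 genes, coloured by range. Signal drops steeply from 32650 at Ckb to 6758 at the gene of rank 100, and genes detected on 0 arrays form a flat tail with a median of 134.

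The tail was flat because undetected signals sat on the arrays' floor. Over all probes, named or not, the lowest detected signal was 156.3 in tumour 1, 145.8 in tumour 2 and 161.7 in tumour 3. The median signal of all undetected probes was 134.9, 125.5 and 137.5 in the same order. The array of tumour 2 was the dimmest over all probes, with a median of 133.6 against 145.2 in tumour 1 and 148.1 in tumour 3. Just inside the detection limit were Zdhhc24, Prr11 and Cyp4f18 (mean signals 155.8, 155.6 and 155.5). Tnnc2, a troponin of fast muscle, had the highest mean signal outside it, with 1195.4 in tumour 1, 135.8 in tumour 2 and 3081.7 in tumour 3. Next came Xist, with 1670.1 in tumour 1, 123.4 in tumour 2 and 138 in tumour 3. Xist is the RNA of the inactive X chromosome. Eif2s3y, a Y-linked gene, ran the other way, with 129.5 in tumour 1, 324.8 in tumour 2 and 351.5 in tumour 3, so tumour 1 differed from the other two in both sex-linked transcripts, which were singled out after their values were seen.

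The top of the ranking held creatine kinase, histones, tubulins and the translation machinery. Ckb, the brain creatine kinase that buffers ATP, ranked first with 31159.4, 32687.2 and 34104.5 in tumours 1, 2 and 3 (32650 ± 1473, SD, n = 3). Among the 100 genes of highest signal were 26 cytosolic ribosomal proteins, 9 subunits of the respiratory chain and ATP synthase, 8 replication-dependent histones, 4 tubulins, 4 translation initiation factors, 2 elongation factors and 2 mitochondrially encoded genes. Another 39 belonged to no family searched, among them Actb, the cyclophilin Ppia, the metallothionein Mt1, ferritin heavy chain Fth1 and the ubiquitin pseudogene Ubb-ps. The 100 brightest named probes, which stood for 85 genes, held 11.2% of all named signal in tumour 1, 12.01% in tumour 2 and 10.6% in tumour 3.

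Histones of the replication-dependent clusters, which are made in S phase to package new DNA, took 5 of the first 7 ranks. H2ac24 had 31575.8, 32576.2 and 30229.9, and H2ac20 had 32074.6, 30856.2 and 26217.6. The 3 tumours lay close together for both. H2ac13, H2ac7 and H2ac10 followed with mean signals of 29215, 28752 and 27752. Of 50 genes of these clusters, 38 were detected, with 18 in the upper, 13 in the middle and 7 in the lower range. The H2A copies are nearly identical in sequence, so their probes may read one another's transcripts and the single genes are uncertain. Tubulins of growing neurites and spindles were as bright. Tubb5 had 27700.5, 28645.4 and 31962.8, Tuba1b had 29930.9, 26604.3 and 26127.4, and Tubb2b had 24165.8, 22615.5 and 24822.3. Of 15 tubulins 11 were detected, while the neuronal Tubb3 was detected on 0 arrays by its single probe.

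Ribosomal proteins had the highest median of the 75 lists and families. The median percentile of the 64 cytosolic ribosomal proteins among all genes was 99.3, against 50.0 for all genes, and 55 were detected. Rpl23 led with 25502.8, 23937.5 and 30243.4, Rps16 stood at the median with 6382.2, 6044.0 and 5481.1, and Rps4l was the dimmest detected at 166.6, 165.6 and 162.6. Translation elongation factors followed with a median percentile of 97.5 and 8 of 8 detected. Eef1a1, which carries aminoacyl-tRNA to the ribosome, had 24852.5, 25417.6 and 25666.6. The respiratory chain and ATP synthase had a median percentile of 96.0, with 75 of 89 genes detected and 56 in the upper range. Atp5b, the catalytic subunit of ATP synthase, had 19535.4, 13896.1 and 19667.7, lowest in tumour 2. Proteasome subunits (29 of 40 detected, median percentile 92.5) and mitochondrial ribosomal proteins (70 of 76, 86.0) also lay mostly in the upper range.

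**Figure D2:**
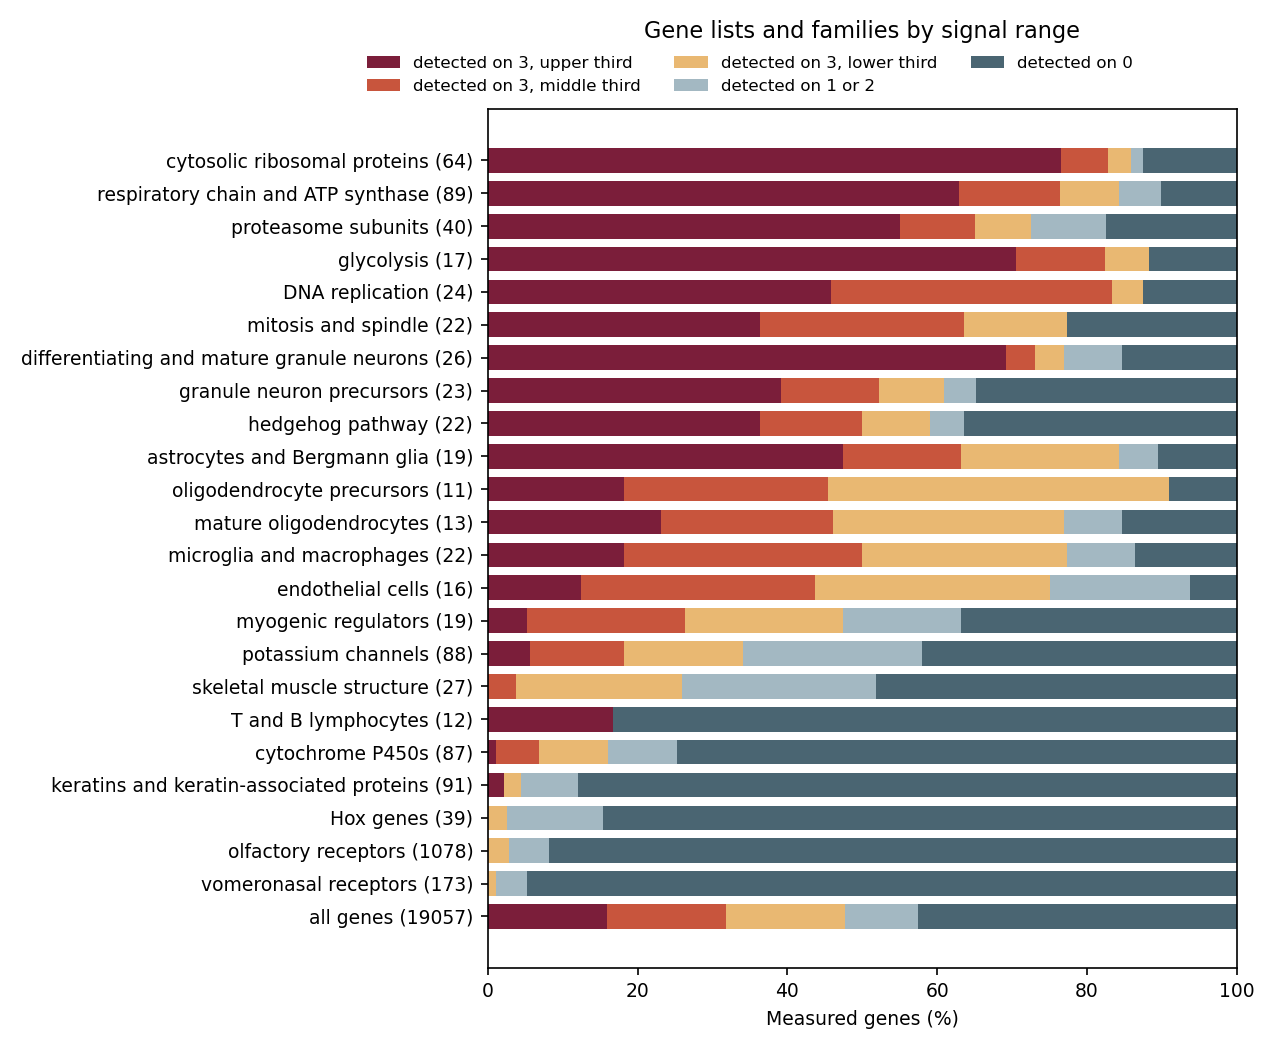
Share of the measured genes (%) of 23 lists and families in each signal range of the 3 MyoD+/+;SmoA2 tumours, with all 19057 genes at the bottom and the number of measured genes in brackets. Housekeeping, proliferation and granule neuron lists are mostly detected, and receptor families of the nose, keratins and Hox genes are mostly detected on 0 arrays.

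Promoters were set beside these ranges because their sequence took no part in the ranking. RefSeq promoters of the mouse build GRCm38.p6 run from 250 bases before to 50 after a gene's start and were held for 15237 of the 19057 genes. Printed below are the 120 bases just before the start of 7 genes, on the gene's own strand, with every CG dinucleotide in capitals. Ckb, Tubb5 and H2ac24 stand for the brightest genes and Zic1 for the granule lineage. Atoh1, Myh4 and Olfr132 were detected on 0 arrays and stand for a granule precursor factor, a muscle myosin and the olfactory receptors.
Ckb: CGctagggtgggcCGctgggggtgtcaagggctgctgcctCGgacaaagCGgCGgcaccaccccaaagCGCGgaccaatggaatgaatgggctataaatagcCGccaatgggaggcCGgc
Tubb5: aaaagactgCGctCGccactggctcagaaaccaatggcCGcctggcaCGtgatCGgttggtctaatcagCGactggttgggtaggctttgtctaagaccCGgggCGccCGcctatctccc
Zic1: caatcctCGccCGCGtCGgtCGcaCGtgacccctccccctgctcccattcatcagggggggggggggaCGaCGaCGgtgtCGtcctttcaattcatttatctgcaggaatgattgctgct
H2ac24: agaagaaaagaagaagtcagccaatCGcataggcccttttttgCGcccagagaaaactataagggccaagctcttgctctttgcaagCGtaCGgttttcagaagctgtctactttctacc
Atoh1: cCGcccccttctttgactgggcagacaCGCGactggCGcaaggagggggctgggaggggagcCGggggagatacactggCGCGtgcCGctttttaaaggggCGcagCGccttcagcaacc
Myh4: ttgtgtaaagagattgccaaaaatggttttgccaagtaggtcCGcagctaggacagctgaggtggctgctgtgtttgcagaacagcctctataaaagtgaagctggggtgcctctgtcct
Olfr132: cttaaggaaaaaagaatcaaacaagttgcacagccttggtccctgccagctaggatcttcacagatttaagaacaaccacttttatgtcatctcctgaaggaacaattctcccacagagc
The sequences lie at chr12:111672339-111672458 (Ckb, minus strand), chr17:35838302-35838421 (Tubb5, minus strand), chr9:91365769-91365888 (Zic1, minus strand), chr13:21833476-21833595 (H2ac24, minus strand), chr6:64729005-64729124 (Atoh1, plus strand), chr11:67237692-67237811 (Myh4, plus strand) and chr17:38131191-38131310 (Olfr132, minus strand). The CpG count in the whole 300 bases was 22 for Ckb, 20 for Tubb5, 31 for Zic1 and 17 for H2ac24. It was 20 for the undetected Atoh1, close to the count of the bright genes, but 1 for Myh4 and 2 for Olfr132. The letters TATAAA lay 40 to 20 bases before the start of Ckb and of Myh4 alike.

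CpG content followed the ranges over all genes. The median promoter held 22 CpG in the upper range, 22 in the middle, 19 in the lower, 13 in genes detected on 1 or 2 arrays and 5.5 in genes detected on 0. Promoters with 5 CpG or fewer made up 3.35% of the upper range and 50.0% of the genes detected on 0 arrays. Without the receptors of smell and taste, the defensins and the keratins, the median of the genes detected on 0 arrays was 8. The motif GGGCGG, searched on both strands, was in 67.5% of promoters of the upper range and 31.2% of those detected on 0 arrays, against 49.4% of all promoters. It contains a CG itself, so it overlaps with the CpG count. The motif CCAAT, searched on both strands, differed little between ranges (37.2% to 39.0%, against 38.4% of all), though the promoters of the 100 brightest genes held it in 51.7%. It was in 82.2% of the promoters of replication-dependent histones. TATAAA at 40 to 20 bases before the start, searched on the gene's strand, was in 1.24% of the upper range, 4.28% of the genes detected on 0 arrays and 2.55% of all, and in 6.41% of the promoters of the 100 brightest genes, 78 of which had a promoter in the table.

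**Figure D3:**
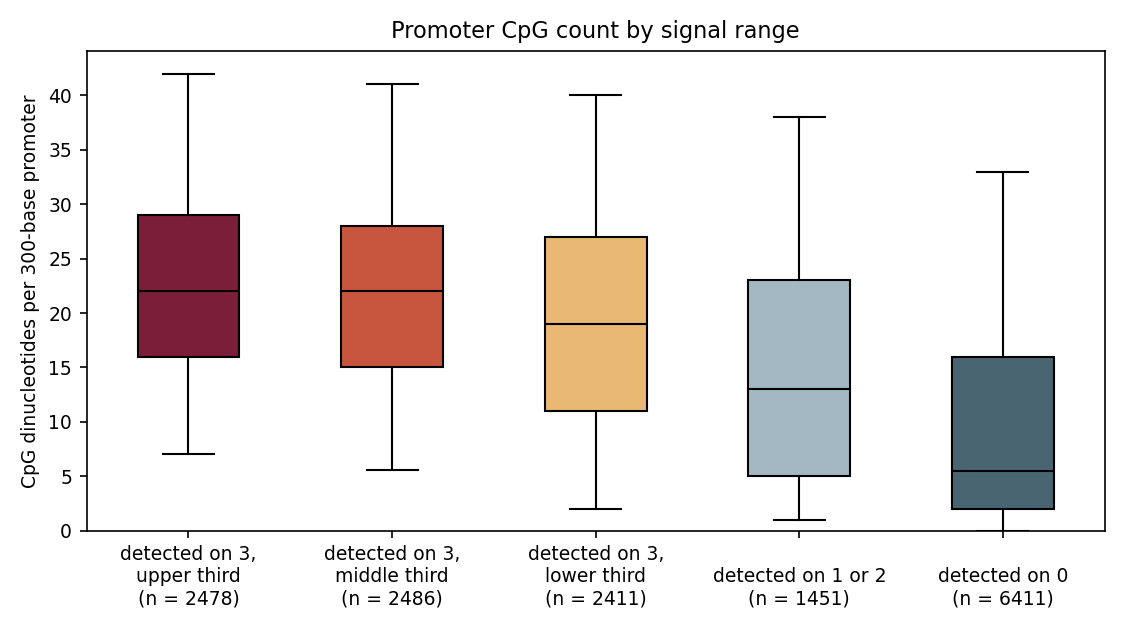
CpG dinucleotides per 300-base RefSeq promoter by signal range of the MyoD+/+;SmoA2 tumours (box, quartiles with the median as a line; whiskers, 5th to 95th percentile; n, genes with a promoter). Medians are 22, 22, 19, 13 and 5.5 from the upper range to the genes detected on 0 arrays.

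Many markers of the granule neuron lineage were bright. The list of differentiating and mature granule neurons also holds genes of neurons in general, such as Map2, Syt1 and Stmn2, so its median is not particular to granule neurons. Of 26 genes of differentiating and mature granule neurons 20 were detected, 18 of them in the upper range, with a median percentile of 94.6. Cbln1, a synapse organiser that granule cells secrete, had 9593.0, 5225.7 and 10912.0 in tumours 1, 2 and 3. Rbfox3, the neuronal antigen NeuN, had 7353.1, 3703.5 and 6720.9. Slc17a7, the vesicular glutamate transporter of granule cell terminals, had 1569.2, 327.8 and 2412.1. All 3 genes were lowest in tumour 2. Gabra6 and Grin2c, receptor subunits of fully mature granule cells, were each detected on 2 arrays, in tumours 1 and 3, with mean signals of 155 and 171. Cbln3, Nefl, Snap25 and Tubb3 were detected on 0 arrays.

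Of 23 granule neuron precursor genes 14 were detected, 9 of them in the upper range, with a median percentile of 78.0. That median was unsteady, at 74.2 in tumour 1, 63.5 in tumour 2 and 81.0 in tumour 3, and at 70.6 when tumour 3 was left out. Tlx3, the median member, had 363.4, 189.6 and 714.8. Sox11, a factor of immature neurons, had 4563.5, 3992.9 and 5092.3. Zic1, a zinc finger factor that marks the granule lineage, had 4306.8, 3106.6 and 4800.7. Tumour 2 was lowest and tumour 3 highest for both, and likewise for Cntn2, an adhesion protein of migrating granule cells (mean signal 3481), and Insm1 (3290). Barhl1, a homeobox factor of the lineage, had 1530.9, 1538.6 and 887.0, with tumour 3 below the other two. Lhx1, Sox4, Meis1 and Zic4 were also in the upper range (mean signals 1463, 1337, 1322 and 995). Zic2, Prox1 and Tlx3 lay in the middle range (535, 500.5 and 423), and Mxd3 and Neurod1 in the lower (221 and 209.8). Meis2 was detected on 2 arrays. Sox11, Cntn2 and Zic4 each also had at least 1 probe detected on 0 arrays. Atoh1, the factor that founds the lineage, had 128.3, 119.4 and 132.1, which is floor signal in every tumour. Pax6, Nhlh1, Nhlh2, Lhx9, Barhl2, Zic5 and Mycn were likewise detected on 0 arrays. Atoh1 and Mycn had 1 probe each, so a probe that fails cannot be told apart from a transcript that is low.

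Hedgehog pathway genes ran from the upper range to genes detected on 0 arrays, and 0 of them were among the 100 brightest. Of 22 measured genes 13 were detected, 8 in the upper range, with a median percentile of 68.2. Among the ligand and receptor side, Shh, the ligand, was detected on 0 arrays (125.6, 131.0 and 150.1). Ptch1, receptor and target at once, had 1063.8, 791.1 and 951.1 on one probe, while its second probe was detected on 0 arrays (149.7, 137.6 and 134.7). Smo, the transducer that Ptch1 restrains, had 1852.3, 842.9 and 1940.2. Of the 4 Smo probes 3 were detected, and whether they also read the SmoA2 transgene was not tested. The co-receptors Boc and Gas1, the decoy receptor Hhip, and Gpr161 and Kif7, which act at the primary cilium, were detected on 0 arrays, and Cdon on 1.

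Of the transcription factors and their brake, Gli2, the main activator, had 1201.0, 935.4 and 1003.7. Gli3, mainly a repressor, had 293.8, 227.5 and 161.7, with tumour 3 at the detection limit. Sufu, which holds Gli proteins back, had 491.6, 427.9 and 350.7. Gli3 and Sufu each also had at least 1 probe detected on 0 arrays. Gli1, a direct target widely used as a readout of the pathway, had 138.0, 116.2 and 132.5 and was detected on 0 arrays by its single probe. Among targets and proliferation genes, Ccnd1, the cyclin that takes precursors through G1, was the brightest of the list with 6977.6, 5422.1 and 5615.1, and its 3 probes were all detected. Sfrp1, a secreted Wnt antagonist, had 4174.2, 2756.5 and 3334.6, and Igf2, a growth factor, had 2961.5, 1698.6 and 3257.8. Igf2 was also the brightest member of the list of fibroblasts and meninges, and which cells gave its signal was not tested. Ccnd2 had 2958.5, 2206.9 and 2239.6. Spop, an adaptor for degradation of Gli proteins, averaged 3192, Foxm1 313, Bmi1 303 and Bcl2 169. Most of the other probes of Bcl2 were detected on 0 arrays.

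Genes of DNA replication lay mostly in the upper and middle ranges, and those of mitosis and the cell cycle were spread more widely. DNA replication genes were detected for 21 of 24, with 11 in the upper and 9 in the middle range and a median percentile of 82.8. Rpa1, which coats single-stranded DNA, led with 2599.6, 2218.7 and 2498.1. All 6 Mcm helicase subunits were detected, from Mcm5 (2729.7, 1585.6 and 2219.1) to Mcm3 (366.8, 276.2 and 309.2). Pcna, Pola1 and Prim1 were detected on 0 arrays by 1 probe each. Mitosis genes were detected for 17 of 22 (median percentile 81.8), with 8 in the upper, 6 in the middle and 3 in the lower range. Bub1, Cenpe and Racgap1 were among the 5 detected on 0 arrays. Cenpa, the centromere histone, had 3838.5, 3307.7 and 3522.0, and Aurka, a spindle kinase, had 511.5, 491.5 and 561.9. Both were alike in the 3 tumours. Cell cycle drivers and inhibitors were detected for 20 of 28 (median percentile 71.1), with 11 in the upper, 4 in the middle and 5 in the lower range. Ccna2, Ccnb2 and Myc were among the 5 detected on 0 arrays. Glycolysis genes were detected for 15 of 17 (median percentile 90.4), led by Tpi1 with 5533.7, 3776.8 and 6939.8.

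Other cell types of the cerebellum and the tumour bed gave signals across all ranges. Astrocytes and Bergmann glia had 16 of 19 markers detected (median percentile 79.8). Their glutamate transporter Slc1a3 had 9754.7, 6851.8 and 7393.7 and was among the 100 brightest genes, while Fabp7 and Glul were detected on 0 arrays. Mature oligodendrocytes had 10 of 13 (67.5), from the myelin gene Mbp with 4674.0, 3687.4 and 3856.4 to Klk6 with 194.5, 181.3 and 180.5. Aspa and Ermn were detected on 0 arrays. The 5 probes of Mbp disagreed, as the next brightest had mean signals of 727 and 569 and the others were detected on 0 arrays (144 and 135). Oligodendrocyte precursors had 10 of 11 (67.1), led by Olig1 with 2439.3, 1920.7 and 1831.6, although Olig2 was detected on 0 arrays by its single probe. Microglia and macrophages had 17 of 22 (69.1). Lyz2, lysozyme, had 1997.4, 1407.6 and 1749.7, and Tyrobp, the median member, had 358.6, 227.1 and 305.9. Itgam, P2ry12 and Ptprc were detected on 0 arrays. Endothelial cells had 12 of 16 (61.8), led by the tight junction gene Cldn5 with 1026.0, 657.1 and 1152.1, and Sox17 was detected on 0 arrays. Purkinje cell markers had 8 of 13 (71.1), with Pvalb at 7635.3, 5147.2 and 3890.4, while Calb1, Car8 and Pcp4 were detected on 0 arrays.

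Lymphocyte markers were the cell type list with the lowest median percentile (30.7) and 2 of 12 detected. The T-cell receptor components Cd3d, Cd3e and Cd3g and the coreceptors Cd4 and Cd8a were detected on 0 arrays. The 2 detected genes were Cd8b1 with 920.6, 759.4 and 913.2 and Foxp3 with 906.3, 573.0 and 1101.6. Their probes disagreed. The other 2 probes of Cd8b1 were detected on 0 arrays (mean signals 135 and 133), and of the 4 probes of Foxp3 the 2 dimmest were detected on 0 arrays (137 and 131).

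Myod1 itself was detected in every tumour, in the lower range at rank 6388. It had 278.9, 177.1 and 267.1 in the MyoD+/+;SmoA2 tumours against 203.5 and 230.9 in the MyoD+/-;SmoA2 tumours, and the genotypes overlapped. Of 19 myogenic regulators 9 were detected (47.4%, median percentile 54.9), near the values of all genes (47.6% and 50.0). Those 9 included Tcf4 (mean 4609), an E protein that pairs with such factors and is widely expressed in brain, and the inhibitors Id1, Id2, Id3 and Id4 (387, 591, 214 and 197). The probes of Tcf4 disagreed, as its others were detected on 0 arrays (mean signals 139 and 122). Mef2c, which also serves neurons, had 478.8, 257.1 and 406.2 and stood at the middle of the detected ranking. Mef2b and Tcf12 were detected as well (mean signals 347 and 248). Id2, Mef2b, Mef2c and Tcf12 each also had at least 1 probe detected on 0 arrays. Myog, which acts after MyoD in muscle, was detected on 2 arrays with 160.7, 141.3 and 166.1. Tcf3 was detected on 2 arrays by its brightest probe and on all 3 by its second probe (171.1, 164 and 168.8), and Myf6 on 1. Myf5, Pax3, Pax7, Six4, Eya1, Eya2 and Mef2d were detected on 0 arrays.

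Structural genes of skeletal muscle had 7 of 27 detected, none in the upper range, with a median percentile of 46.3. Acta1, skeletal actin, was the brightest detected with 370.3, 149.4 and 441.5. Myl4, Actn2, Des, Actn3, Mb and Ryr1 were detected in the lower range (mean signals 206, 188, 182.5, 164, 164 and 163). Ckm, the muscle creatine kinase, had 132.2, 117.7 and 126.4, in contrast to the brain enzyme Ckb at rank 1. The adult fast myosins Myh1 and Myh4 and Casq1, which stores calcium in fast fibres, were detected on 0 arrays, and Myh4 ranked 18761 of 19057. The troponin Tnnc2, given above, and Acta1 were both lowest in tumour 2 and highest in tumour 3.

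Zinc finger factors, solute carriers, potassium channels and receptors for GABA and glutamate lay mostly in the middle and lower ranges or were undetected. So did genes at large, of which 3027 of 19057 (15.9%) were in the upper range. The genes of lists or families nearest the middle of the detected ranking were Slc4a2, Zfp239, Zfp623, Mef2c and Zfp771, with mean signals from 379 to 384. Zinc finger genes with a Zfp symbol were detected for 171 of 331 (51.7%) and lay more often in the lower (78) and middle (60) than in the upper range (33). Solute carriers were near the share of all genes (47.6%), with 164 of 356 detected (46.1%). Of 88 potassium channel genes 30 were detected (34.1%), 5 in the upper range, led by Kcnk1 with 2737.2, 1558.7 and 2813.0. Of 14 GABA-A receptor subunits 3 were detected, and Gabrd, a subunit of granule cells, had 985.9, 414.8 and 1293.5. Of 15 ionotropic glutamate receptor subunits 8 were detected, 4 of them in the upper range, with Gria2 at 2010.8, 1678.0 and 2163.0.

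The undetected range held families of sensory tissue, skin, gut and axial patterning. Of 1078 olfactory receptors 31 were detected (2.88%), all in the lower range, and 990 were detected on 0 arrays. Olfr724, the brightest, had 199.4, 200.4 and 223.4, and Olfr132, the median one, had 139.0, 125.4 and 134.9. Vomeronasal receptors had 2 of 173 detected, taste and trace amine receptors 0 of 50, defensins 0 of 50 and keratins with their associated proteins 4 of 91. Hox genes, which pattern the body axis behind the cerebellum, had 1 of 39 detected. That gene was Hoxa13, with 207.2, 195.2 and 226.8. Cytochrome P450 genes had 14 of 87 detected and Wnt ligands 3 of 19.

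The 3 tumours ranked genes alike. Across the 13205 detected probes, which are not independent replicates, log2 signals of tumours 1 and 2 had a Pearson correlation of 0.980, tumours 1 and 3 of 0.986, and tumours 2 and 3 of 0.971. The Spearman values were 0.965, 0.972 and 0.955. Of the 100 brightest genes on each array, 81 were shared by all 3. The median range between the highest and lowest tumour of a detected gene was 0.38 on the log2 scale of the signals, and 324 of 9080 genes (3.57%) spanned more than 2-fold. Of those 324 genes, 316 were lowest in tumour 2. The array of tumour 2 was the dimmest, as given above. On the authors' processed log2 values, read here as quantile-normalized, tumour 2 was lowest in 32.0% of detected genes, and 142 genes spanned more than 2-fold. Of those 142, 113 were still lowest in tumour 2 and 106 highest in tumour 3.

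**Figure D4:**
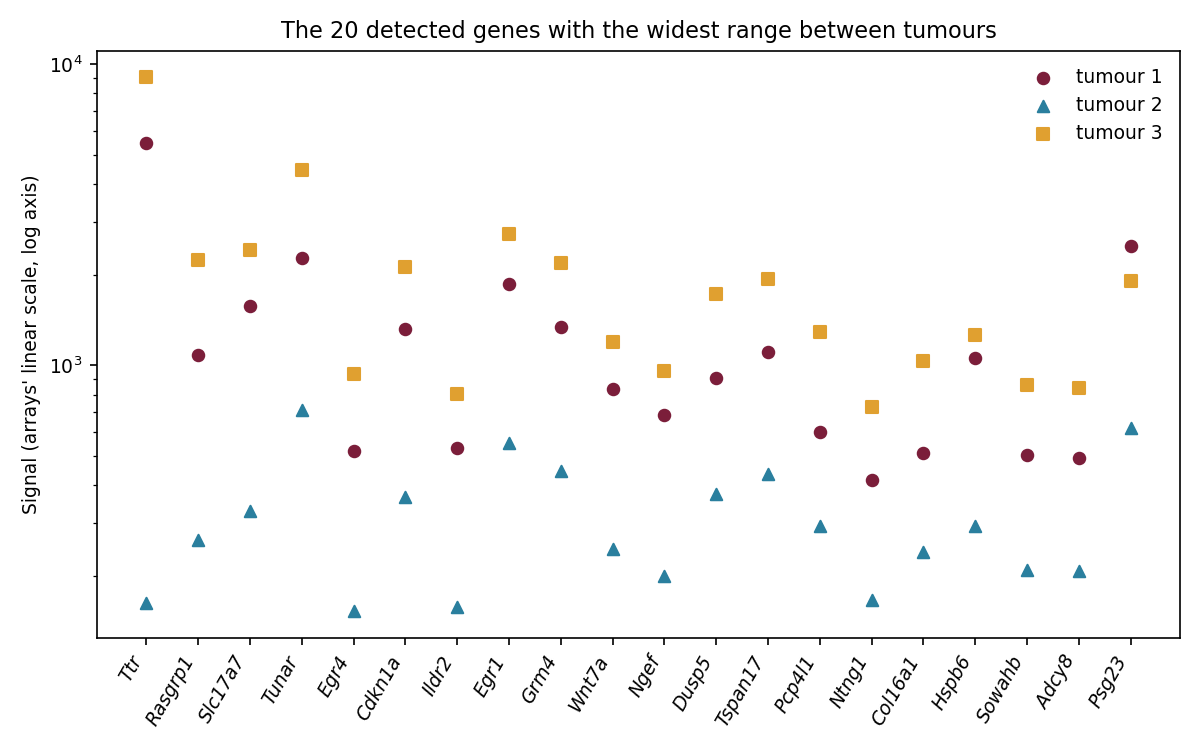
Signal (log axis) in tumours 1, 2 and 3 of the 20 detected genes with the widest range between the MyoD+/+;SmoA2 tumours, widest first. Tumour 2 is lowest for all 20, and Ttr spans from 162.6 in tumour 2 to 9037.7 in tumour 3.

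Among the widest genes were a choroid plexus gene, activity-induced genes and genes of mature granule neurons. Ttr, transthyretin of the choroid plexus, had 5465.7, 162.6 and 9037.7, a range of 5.80 on the log2 scale of the signals. The whole choroid plexus and ependyma list had 6 of 11 genes detected and summed to 8441 in tumour 1, 2388 in tumour 2 and 11827 in tumour 3, and most of the sum in tumours 1 and 3 was Ttr. Otx2 had 921.8, 472.7 and 650.9, while Sostdc1, Kl and Folr1 were detected on 1 or 2 arrays. The part of choroid plexus tissue in the samples was not tested. Egr1, induced by activity or growth factors, had 1856.2, 554.1 and 2720.1, and Egr4 had 521.4, 152.7 and 932.8. Cdkn1a, the cell cycle inhibitor p21, had 1322.4, 365.4 and 2125.2. Grm4, a glutamate receptor of granule cell terminals, had 1345.8, 446.8 and 2188.2, and Wnt7a had 837.6, 245.5 and 1196.0. Tumour 2 was lowest and tumour 3 highest in each. Haemoglobin genes were highest in tumour 2 and lowest in tumour 1, with Hbb-bt at 437.8, 1663.5 and 1153.0 and Hbb-bs at 413.5, 1610.5 and 1037.2. The red blood cell list summed to 2108, 5280 and 3945 in tumours 1, 2 and 3, and the part of blood in other differences was not tested.

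Lists shifted between the tumours in different directions. On the authors' processed values, 13 of 20 detected genes of differentiating and mature granule neurons were lowest in tumour 2, and so were 12 of 15 glycolysis genes and 6 of 9 immediate early genes, beside 2910 of all 9080 detected genes. Tumour 3 was lowest for 17 of 21 DNA replication genes, 38 of 55 ribosomal proteins, 14 of 17 microglia and macrophage genes, 11 of 16 astrocyte genes and 9 of 10 mature oligodendrocyte genes, beside 3450 of the 9080. Replication-dependent histones were lowest in tumour 1 for 31 of 38, beside 2720 of the 9080. Granule neuron precursor genes showed no such lean, with 4 lowest in tumour 1, 5 in tumour 2 and 5 in tumour 3. These counts describe 3 arrays and carry no test.

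The leans towards tumour 3 did not hold on the non-normalized signals, where tumour 2 was lowest for 7907 of the 9080 detected genes. There tumour 2 was lowest for 16 of the 21 DNA replication genes, 31 of the 55 ribosomal proteins, 13 of the 17 microglia and macrophage genes, 10 of the 16 astrocyte genes and 6 of the 10 oligodendrocyte genes. Tumour 2 was also lowest for 18 of the 20 granule neuron genes, 15 of 15 glycolysis genes, 9 of 9 immediate early genes and 13 of the 14 granule neuron precursor genes. Histones were lowest in tumour 1 for 21 of 38 on that scale, in tumour 2 for 10 and in tumour 3 for 7.

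**Figure D5:**
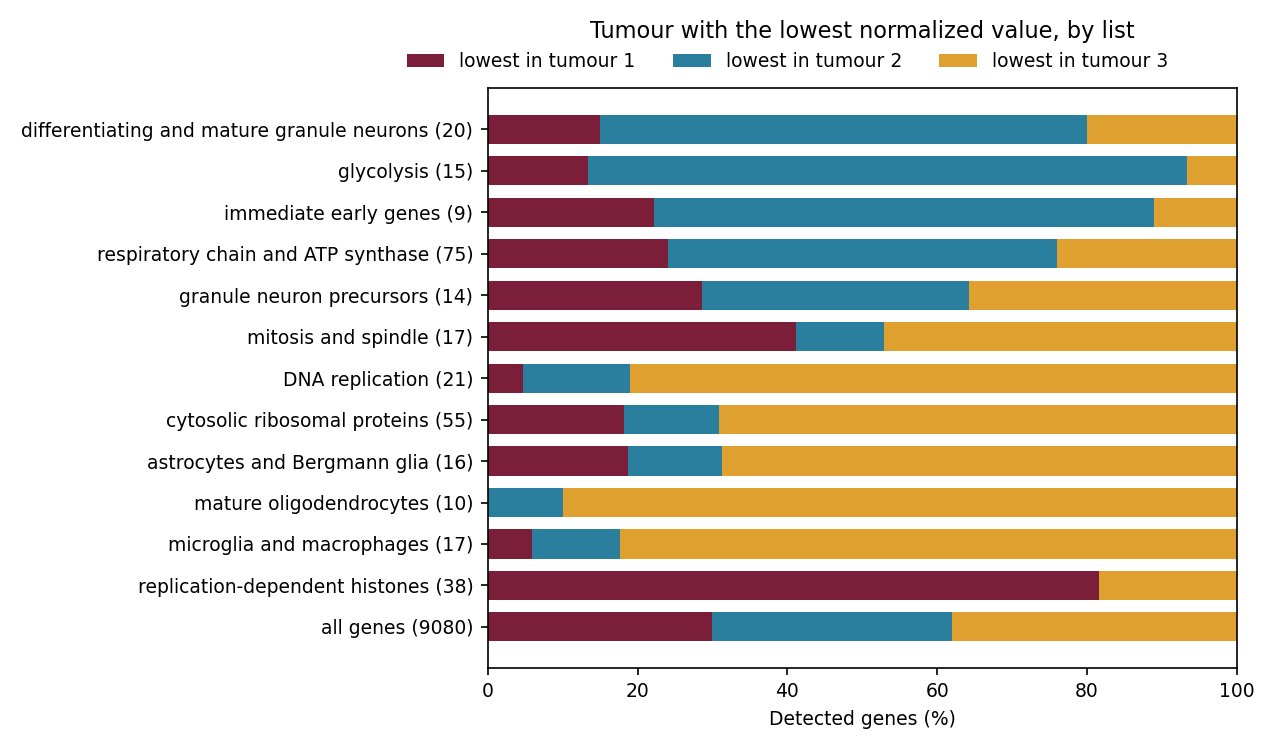
Share of the detected genes (%) of 12 lists that have their lowest authors' processed log2 value in tumour 1, 2 or 3, with all 9080 detected genes at the bottom and the number of detected genes in brackets. Mature granule neuron and glycolysis genes are mostly lowest in tumour 2, oligodendrocyte and microglia genes in tumour 3, and replication-dependent histones in tumour 1. On the non-normalized signals, which are not drawn, most genes of every list named here except the histones are lowest in tumour 2.

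For the MyoD+/-;SmoA2 tumours only detection of the same probes was counted, and their genes were not ranked. Both MyoD+/-;SmoA2 arrays detected 49.8% of all genes. They detected 100% of the genes of the upper range, 99.9% of the middle and 92.9% of the lower. The share was 31.1% for genes detected on 1 or 2 MyoD+/+;SmoA2 arrays and 0.653% for those detected on 0. The lowest detected signals of the MyoD+/-;SmoA2 arrays were 157 and 157.7, far below the upper range. Its detection there therefore does not show that the ranges carried over. Of 18675 probes tested between MyoD+/+;SmoA2 and MyoD+/-;SmoA2 tumours with limma, 0 (0%) passed a Benjamini-Hochberg adjusted p of 0.05. An unadjusted p under 0.05 was reached by 972 (5.20%), over all probes about the share that this threshold passes when no probe differs. The share differed by range. By the brightest probe of each gene it was 2.11% in the upper range, 4.26% in the middle and 7.77% in the lower. It was 3.86% in genes detected on 1 or 2 arrays. Of genes detected on 0, 23 of 53 tested (43.4%) reached it. Those 53 passed the filter only through the MyoD+/-;SmoA2 arrays, so their share shows no difference by itself. The same fit called 0 of the 100 brightest genes, none of which had an unadjusted p under 0.05. With 3 tumours against 2, a probe that does not pass is not shown to be equal.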

How the data were processed

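Each of the 5 tumours has 1 Illumina array. Total RNA was isolated with Trizol and RNeasy columns with DNase treatment, checked on a Bioanalyser and labelled with biotin as cRNA (Ambion MessageAmp), per the labels' protocols. For every probe on each array the authors deposited a non-normalized signal intensity and a detection p-value, besides a table of processed values. The scanner and software are not given in the sources used here. The authors' processed values were read as quantile-normalized log2 signals. In each MyoD+/+;SmoA2 column they rank the probes exactly as the deposited intensities of that array do. Any transformation that keeps the order would do so too, so the ranks do not show which normalization was used. The number of arrays limits the precision.

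Of 45281 probes, 34885 had 1 gene symbol in the platform annotation, 18 had several and 10378 had none. Of the named probes 34807 matched RefSeq. The 19057 genes were each represented by the probe of highest mean intensity over the 3 MyoD+/+;SmoA2 arrays. Of these, 9172 had more than 1 probe, and of the 5665 detected genes with several probes 3430 also had a probe detected on 0 arrays. A percentile is the share of all genes that rank lower. The 26 gene lists and 49 symbol families, and the members themselves, were chosen with earlier results of these data known, and the symbol patterns for histones, interferons and mitochondrially encoded genes were completed after the symbols were seen. Named by rule were the 30 brightest genes, the highest, median and lowest detected member and up to 3 undetected members of each list or family described, all myogenic, hedgehog and granule precursor genes, the 20 widest genes, the 5 nearest the middle of the ranking and those that rank furthest apart between arrays. Other genes were named after their values were seen.

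Genotypes were compared with limma 3.58.1 in R 4.3.3 (neqc background correction and normalization with an offset of 16, lmFit, eBayes, two-sided, Benjamini-Hochberg over the 18675 probes that 2 or more of the 5 arrays detected at 0.05). The fit was tested on simulated data. Alternatives were a detection p under 0.01, other ways of joining probes, neqc, the authors' values and leaving out each tumour. Protein features were not analysed here.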

Additional observations from a re-analysis of the deposited data

Results flagged for a closer look

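Probes without 1 gene symbol carried signal that no gene ranking covers. Of 10396 such probes, 2167 (20.8%) had a detection p under 0.05 on all 3 MyoD+/+;SmoA2 arrays, with a median mean signal of 273, and 77 lay above the signal of the gene at rank 100 (6758). The brightest had 31439.3 in tumour 1, 27951.9 in tumour 2 and 30807.1 in tumour 3, so some of the brightest probes in these tumours have no gene name here.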

How the results depend on the processing

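The count of detected genes depended most on how probes were joined. It was 9080 with the brightest probe and 5007 when every probe of a gene had to be detected, while a detection p under 0.01 gave 7815 and leaving out each tumour in turn gave 9242 to 9531. With the mean of all probes of a gene, 72 of the 100 brightest genes were shared with the main ranking. The other rankings tried shared 96 to 100. The share of genes detected reached 50% in 46 of 75 lists and families, in 37 at a detection p under 0.01, and in 46 to 48 under the other settings. Median percentiles of 39 of the 75 lists stayed within their spread when all probes of a gene were averaged, and the largest shift was 13.0 points, for the GABA-A receptor subunits. The difference in median CpG count between the upper range and the genes detected on 0 arrays was 16.5, and 16 at a detection p under 0.01. In the genotype comparison, limma run with trended, robust variances called 2 probes, of Mbp and Gdpd3, and leaving out each tumour in turn gave 0 to 1 calls, the 1 being Gdpd3 without tumour 2 of MyoD+/+;SmoA2. Both genes were named after their values were seen. The cause was not tested. The other settings called 0 probes. At an unadjusted p under 0.05, limma gave 972 of 18675 probes (5.20%) in the main setting. Of the same probes it gave 963 on the authors' processed values, 965 with quantile normalization alone and 890 with trended, robust variances. Without the filter on dim probes limma gave 2461 of 45281. It gave 929 to 1151 without 1 MyoD+/+;SmoA2 tumour, 464 without MyoD+/-;SmoA2 tumour 1 and 705 without MyoD+/-;SmoA2 tumour 2. The sample titles carry 3 letter codes, 2 of which occur in both genotypes and whose meaning the labels do not give. A fit with the codes as a block, chosen after seeing the data, left 1 residual degree of freedom and called 0 probes, with 1509 at an unadjusted p under 0.05. No paired analysis was possible because the replicate numbers only follow the order of the samples and pair no tumours. Signals near the arrays' floor limit what can be said of genes below the lower range, and such genes have no reliable order.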
